A study of Mus musculus with 12 samples.

Results

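RNA sequencing was compared between lincRNA-p21 knockout (KO) and wild-type (WT) mouse embryonic fibroblasts after doxorubicin. The comparison took every gene row of the deposited doxorubicin table and paired the KO and WT libraries that carry the same replicate number, so 6 of the 12 libraries of the series entered it. KO cells were lincRNA-p21-/- and WT cells lincRNA-p21+/+, both on a hybrid 129/B6 background, with 3 libraries per genotype. All 6 cultures were primary fibroblasts kept in DMEM and given doxorubicin for 24 h at 0.5 mM as the labels state it, a unit that is in doubt because micromolar doses are more usual. The kind of lincRNA-p21 allele, the age of the embryos and what a replicate number stands for are not given in the sources used here. The series calls the libraries biological triplicates, and the p-values below measure only the spread between these libraries. Mock-treated libraries did not enter, so a difference that doxorubicin produced and one that was there before it cannot be told apart.

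Doxorubicin intercalates into DNA and traps topoisomerase II, and the breaks it leaves activate the transcription factor p53. LincRNA-p21 is a p53-induced long noncoding RNA made from the neighbouring locus of Cdkn1a, whose protein p21 inhibits cyclin-dependent kinases and so holds cells before S phase and, through the RB-family and DREAM complexes, keeps cell cycle genes off. Polycomb complexes silence developmental regulators, such as the Hox genes, by modifying histones. The title of the series names Polycomb targets, the G1/S checkpoint and p21 as its subjects. The gene groups below draw on that and on what fibroblasts express. They were chosen with earlier results of these data known, so their counts are not independent of these data.

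After doxorubicin, KO fibroblasts held more mRNA of the secreted enzyme Enpp2, of the developmental regulators Tfap2b, Tbx4 and Hoxd13, of the growth regulators Hmga2 and Ccnd1 and of 26 of 76 ribosomal protein genes. They held less mRNA of complement C3, of the intermediate filament gene Des, of 4 of 7 measured Hoxc genes, of 18 of 67 mitotic genes and of 13 of 47 lysosome and autophagy genes. These counts are of genes that passed the test described below, which 11.8% of all genes passed upward and 13.6% downward. When libraries were not paired by replicate number, 0 genes passed. With replicate 1 left out, 0 ribosomal protein genes passed upward. Downward, 1 lysosome or autophagy gene, 18 mitotic genes and 3 Hoxc genes then passed. In that fit 1.62% of all genes passed upward and 4.6% downward. With replicate 2 left out, 9 mitotic genes passed downward, or 13.4% of the list beside 13.3% of all genes. Cdkn1a itself was 1260 ± 175 CPM in WT and 1078 ± 21.9 CPM in KO (CPM is a gene's reads scaled to the library total, and values are mean ± SD, n = 3), a difference that did not pass the test.

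Of 11125 genes tested, 2820 were called, which is 25.3% (limma on log2(CPM + 1) with the replicate number as a block, Benjamini-Hochberg adjusted p under 0.05). Of these, 1311 were higher in KO, or 11.8% of all genes, and 1509 were lower, or 13.6%. Most called differences were small, since 1429 had a size under 0.5 on the log2 scale, whereas 38 exceeded 1 upward and 159 exceeded 1 downward. The 3 KO libraries lay wholly above or below the 3 WT libraries for 16.3% of all genes, with KO above for 9.7% and KO below for 6.64%. The table lists only genes above 2 CPM in all 3 WT libraries, while in KO 313 of them were at or under that level in at least 1 library, so genes silent in WT are not analysed here and the split between higher and lower calls is uneven by construction. Among genes with a mean under 5 CPM, 2.638% were called higher and 17.84% lower, and above 100 CPM the shares were 13.49% and 15.13%.

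**Figure D1:**
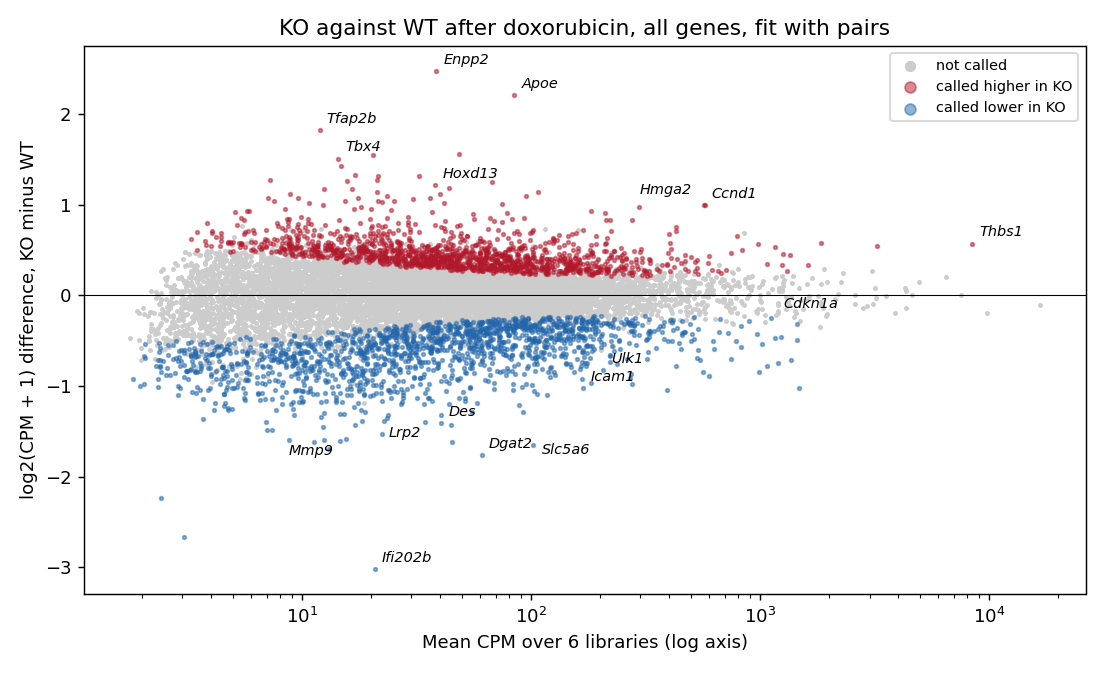
Difference between KO and WT for every gene after doxorubicin, as log2(CPM + 1), KO minus WT, against its mean CPM over the 6 libraries on a log axis. Each point is a gene, coloured by whether it was called higher (1311 genes), called lower (1509) or not called, and Enpp2 at 2.48 and Ifi202b at -3.02 are the extreme labelled points.

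These calls rest on the pairing. Without the replicate block limma called 0 genes, the smallest adjusted p was 0.0963 and 1246 genes had an unadjusted p under 0.05, so no call named below was kept in that fit. Libraries of the same number deviated from their group means together, with correlations across genes of 0.734, 0.669 and 0.800. Those for different numbers were at most -0.114, but deviations cancel out within a group, so positive same-number values force the others negative on balance. On the first principal component, which held 45.8% of the variance, each KO library lay below the WT library of its number (KO at -36.9, -18.7 and 8.83, WT at -5.16, 12.8 and 39.1), while KO replicate 3 lay above WT replicate 1. The calls also depended on which pairs were fitted, with 692 genes called without pair 1, 2590 without pair 2 and 1560 without pair 3, and 157 higher and 448 lower calls passed in all of these fits as well. Without pair 1 the share of all genes called higher was 1.62% and lower 4.6%, without pair 2 it was 9.96% and 13.3%, and without pair 3 it was 4.84% and 9.19%. Where a gene below lost its call in one of these fits, its adjusted p there is given, and the calls of a list are given in that order of pairs left out. Depth was similar in both groups, with totals of 14406465 to 20511907 reads per library, and the 10 highest genes took 6.493 to 7.906% of a library.

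Among called genes with libraries that did not overlap and a mean of at least 5 CPM, the largest rise belonged to Enpp2, which encodes autotaxin, the secreted enzyme that makes lysophosphatidic acid. Enpp2 stood at 10.0, 7.70 and 15.3 CPM in WT replicates 1 to 3 and at 70.1, 44.4 and 82.8 CPM in the KO libraries. Its log2 difference was 2.48 ± 0.11 (SE, adjusted p = 0.00085), and the lowest KO library lay well above the highest WT one. Tfap2b, a transcription factor of neural crest and limb, followed with 3.89, 2.68 and 7.35 CPM in WT against 18.7, 10.7 and 28.2 in KO (1.83 ± 0.13, adjusted p = 0.0036). All 3 pairs of Tfap2b differed by at least 1.67. Nt5e, the ecto-nucleotidase CD73, had the least even pairs among these genes, with 12.7, 19.7 and 2.45 CPM in WT and 27.3, 39.2 and 20.4 in KO (1.55 ± 0.31, adjusted p = 0.0157). Its pair 3 difference of 2.63 stood well above the 1.04 and 0.96 of pairs 1 and 2.

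Further members of the 20 largest non-overlapping rises are given next. Tnfsf11, the RANK ligand that drives osteoclast formation, was 5.48, 5.26 and 13.1 CPM in WT and 18.4, 20.7 and 25.5 in KO (1.43 ± 0.18, adjusted p = 0.00556). Fgf7, a fibroblast-made growth factor for epithelia, was 21.9, 31.5 and 28.6 CPM in WT and 55.5, 65.3 and 48.0 in KO (1.02 ± 0.12). Fgf2 differed by 1.17 ± 0.22, but its call was lost without pair 1 (adjusted p = 0.059). The others of this set were the BMP9 receptor Acvrl1 (1.04 ± 0.16), the lymphangiogenic factor Ccbe1 (1.19 ± 0.16), the axon guidance receptor Robo2 (1.07 ± 0.16), the adhesion receptor Adgrg6 (1.01 ± 0.12), Stat5a (1.08 ± 0.16), the aryl hydrocarbon receptor repressor Ahrr (1.04 ± 0.12), Fhdc1 (1.32 ± 0.21), Fbxo17 (1.02 ± 0.15) and Svop (1.00 ± 0.13). Each of these kept its call without any one pair.

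Among called genes with libraries that did not overlap and a mean of at least 5 CPM, Ifi202b had the largest fall. It went from 54.6, 52.0 and 8.85 CPM in WT to 1.22, 4.10 and 3.79 in KO (-3.02 ± 0.57, adjusted p = 0.0136). It is an interferon-inducible gene whose expression is known to differ between inbred mouse strains, and WT replicate 3 was far below the other WT libraries. Without pair 1 its adjusted p was 0.0546. A more even fall was that of C3, the central complement component, at 12.2, 37.0 and 12.2 CPM in WT and 2.81, 11.6 and 3.10 in KO (-1.69 ± 0.13, adjusted p = 0.0036). Its pairs differed by -1.78, -1.60 and -1.68, although replicate 2 was the highest library in each genotype. Wnk2, a kinase that regulates ion transport and ERK signalling, was 10.6, 21.9 and 25.0 CPM in WT and 2.43, 7.21 and 7.93 in KO (-1.59 ± 0.13). Lrp2, the endocytic receptor megalin, was 23.4, 54.1 and 23.6 CPM in WT and 6.53, 16.1 and 9.71 in KO (-1.53 ± 0.14). Both are of this set, chosen for libraries that did not overlap, and had differences below -1 in each pair.

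Des, which encodes the muscle intermediate filament desmin, fell from 69.1, 72.9 and 37.5 CPM to 19.3, 26.4 and 18.3 (-1.41 ± 0.15, adjusted p = 0.00449). C1qtnf3, an adipokine of the C1q and TNF family, fell from 27.8, 130 and 52.3 CPM to 8.38, 27.2 and 25.4 (-1.62 ± 0.21). In bulk RNA of this kind, fewer cells of a type and less RNA per cell cannot be told apart. The remaining genes of the 20 largest non-overlapping falls were the platelet glycoprotein gene Gp9 (-1.60 ± 0.25), Tspan33 (-1.45 ± 0.13), the Nogo receptor relative Rtn4rl1 (-1.35 ± 0.16), the adenylate cyclase Adcy5 (-1.28 ± 0.14), the sodium channel subunit Scn4b (-1.27 ± 0.20), the homeobox gene Msx3 (-1.26 ± 0.18), the transcriptional co-activator Cited4 (-1.20 ± 0.20), the collagen receptor subunit Itga11 (-1.19 ± 0.28) and genes taken up below with their groups. Itga11 lost its call without pair 1 (adjusted p = 0.077).

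**Figure D2:**
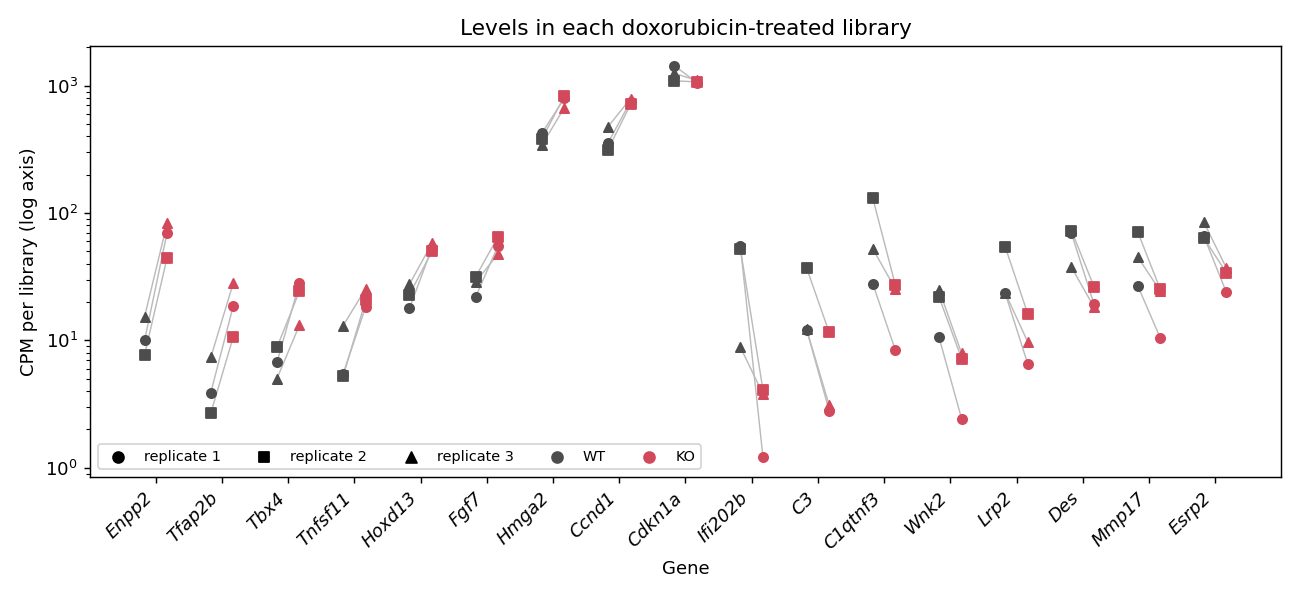
CPM on a log axis in each doxorubicin-treated library for 17 genes, with WT in grey, KO in red, a marker shape for each replicate number and a line joining the libraries of one number. Enpp2 shows 3 KO points between 44.4 and 82.8 CPM above WT points of 7.70 to 15.3, Cdkn1a shows overlapping groups between 1059 and 1440 CPM, and the genes from Ifi202b rightward show KO below WT in each pair.

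Some large called differences had overlapping groups and were noticed only after their values were seen. Apoe, an apolipoprotein, was 23.5, 15.4 and 3.12 CPM in WT and 335, 127 and 2.81 in KO (2.21 ± 0.64, adjusted p = 0.0437). The first and second pairs differed by 3.77 and 2.97 and the third by -0.11, and the call was lost without pair 1 (adjusted p = 0.178) or pair 2 (0.131). Fbn2, a microfibril protein, was 27.1, 10.5 and 18.3 CPM in WT and 105, 11.7 and 119 in KO (1.56 ± 0.40). In this case pair 2 was the small one, at 0.14, and without pair 1 the adjusted p was 0.131. Slc5a6, the vitamin transporter SMVT, behaved otherwise: its levels of 56.9, 180 and 217 CPM in WT and 12.6, 62.6 and 83.2 in KO overlapped, yet each pair fell by at least 1.37 (-1.66 ± 0.14, adjusted p = 0.004).

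Cdkn1a, the neighbour of lincRNA-p21, was next examined, since the series title ties the RNA to p21. Cdkn1a was 1440, 1091 and 1248 CPM in WT and 1059, 1072 and 1102 in KO. The log2 difference was -0.22 ± 0.10 (adjusted p = 0.143), with pair values of -0.44, -0.03 and -0.18, so KO was below WT in 3 of 3 pairs without reaching a call. Over all genes, 61.8% had the same sign in all 3 pairs. LincRNA-p21 itself is not analysed here, so the knockout could not be checked by the deleted transcript. Among the 10 measured genes nearest to Cdkn1a on chromosome 17 in the reference gene order, 5 on each side, 2 were called higher and 0 lower. These were Brpf3, a chromatin reader subunit (28.96 CPM in WT, 38.3 in KO, 0.40 ± 0.09), and Tbc1d22b (14.6 and 21.1 CPM, 0.51 ± 0.11). Neither kept its call without pair 1 (adjusted p of 0.111 and 0.0805) or pair 3 (0.131 and 0.0767). The splicing factor gene Srsf3, which lies next to Cdkn1a on that list, differed by 0.23 ± 0.09 (adjusted p = 0.0908).

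The p53 pathway was read as 3 lists beside the gene for p53 itself. Trp53, which encodes p53, was 252, 245 and 351 CPM in WT and 171, 242 and 246 in KO (-0.36 ± 0.11, adjusted p = 0.0522). Mdm2, the ubiquitin ligase that p53 induces and that degrades it, was 918, 753 and 953 CPM in WT and 925, 932 and 928 in KO (0.09 ± 0.09, adjusted p = 0.468). Of 25 measured p53 feedback and arrest genes, 2 were called higher (8%) and 3 lower (12%), beside 11.8% and 13.6% of all genes, with a median log2 difference of -0.02 against 0.03 over all genes. Phlda3, an inhibitor of AKT, was 219, 187 and 197 CPM in WT and 299, 283 and 231 in KO (0.42 ± 0.09), and Mdm4, the p53 inhibitor related to Mdm2, differed by 0.37 ± 0.10. Ppm1d, the phosphatase WIP1 that switches off damage signalling, fell from 37.1, 55.1 and 50.5 CPM to 24.2, 34.5 and 34.6 (-0.60 ± 0.09, adjusted p = 0.00734). Sesn1, an antioxidant regulator of mTORC1, was lower by -0.53 ± 0.11, and Gtse1, which moves p53 out of the nucleus, by -0.23 ± 0.07. Of these, Phlda3, Mdm4, Sesn1 and Gtse1 lost their calls without pair 1 (adjusted p from 0.0896 to 0.184), Mdm4 and Gtse1 also without pair 2 (0.0659 and 0.0544) and Sesn1 and Gtse1 without pair 3 (0.06 and 0.15), and Ppm1d kept its call throughout. The list had 0, 2 and 2 higher and 1, 4 and 1 lower calls with pair 1, 2 or 3 left out.

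Of 18 measured p53 targets in apoptosis, 1 was called higher (5.556%) and 4 lower (22.22%), beside 11.8% and 13.6% of all genes, and the median was 0.05. Bbc3, the BH3-only protein PUMA, was 20, 17.4 and 21.5 CPM in WT and 29.0, 24.7 and 26.2 in KO (0.42 ± 0.11), though it lost its call without any one of the pairs (adjusted p from 0.0574 to 0.136). Trp53i11 fell from 132, 120 and 160 CPM to 69.9, 85.2 and 113 (-0.63 ± 0.10, adjusted p = 0.00858), and the autophagy regulator Dram1 was lower by -0.55 ± 0.11, the iron reductase Steap3 by -0.47 ± 0.13 and the BH3-only gene Bcl2l11 by -0.39 ± 0.12. Dram1, Steap3 and Bcl2l11 had adjusted p from 0.0755 to 0.157 without pair 1, and Bcl2l11 0.0897 without pair 2, and Steap3 and Bcl2l11 0.0527 and 0.0663 without pair 3. Of 26 repair and metabolic targets, 2 were called higher (7.692%) and 5 lower (19.23%), with a median of -0.05. Fdxr, ferredoxin reductase of the mitochondrion, fell from 30.6, 38.8 and 61 CPM to 13.8, 20.4 and 31.6 (-0.97 ± 0.10, adjusted p = 0.0044). Gls2, the glutaminase of the same organelle, fell from 25.4, 36.7 and 48.7 CPM to 6.91, 17.5 and 27.1 (-1.20 ± 0.18). For both genes the groups overlapped. The detoxifying hydrolase Ephx1 (0.34 ± 0.07) and the phosphatase Dusp1 (0.47 ± 0.09) were higher, and the growth factor Kitl (-0.58 ± 0.11) and the peptide transporter Tap1 (-0.35 ± 0.08) lower, with adjusted p from 0.0565 to 0.142 without pair 1. Lower calls numbered 1, 3 and 3 among apoptosis targets and 2, 5 and 5 among repair and metabolic targets with pair 1, 2 or 3 left out.

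Cell cycle genes of G1 were considered next. Ccnd1, which encodes cyclin D1, the partner that lets CDK4 and CDK6 inactivate RB, was 356, 315 and 476 CPM in WT and 751, 714 and 792 in KO (1.00 ± 0.10, adjusted p = 0.0044). Ccnd1 was in the set of largest rises chosen for libraries that did not overlap. Its means were 382 ± 84.1 CPM in WT and 752 ± 39.5 CPM in KO. Cdk4 was 211, 154 and 150 CPM in WT and 265, 268 and 192 in KO (0.49 ± 0.10), with an adjusted p of 0.0562 without pair 1. The kinase genes were otherwise not called, with Cdk2 at 0.34 ± 0.13 (adjusted p = 0.0885), Cdk6 at 0.03 ± 0.13 and Cdk7 at 0.17 ± 0.09, nor were its partners Ccnh (0.30 ± 0.11) and Mnat1 (0.37 ± 0.11, adjusted p = 0.0518). Ccnd2 differed by 0.31 ± 0.10 (adjusted p = 0.0627), Ccnd3 by 0.11 ± 0.10, Myc by 0.22 ± 0.10 and E2f3 by 0.10 ± 0.09. In the same list of 14 genes, 2 were called higher and 2 lower, and the median was 0.19. Each share was 14.29%, near the 11.8% higher and 13.6% lower of all genes.

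Ccne2 and E2f1 were the 2 members called lower. Ccne2, cyclin E2, fell from 8.19, 36.1 and 29.7 CPM to 4.54, 15.3 and 12.5 (-1.03 ± 0.14, adjusted p = 0.00637). E2f1, the founding E2F activator, fell from 43.7, 48.3 and 48.2 CPM to 31.4, 32.2 and 35.9 (-0.48 ± 0.09), with groups that did not overlap and an adjusted p of 0.0632 without pair 1. Ccne1, the other cyclin E gene, was 7.71, 32.1 and 7.68 CPM in WT and 9.21, 9.89 and 5.86 in KO and was not called (-0.57 ± 0.31, adjusted p = 0.205). Its widest pair was replicate 2, where WT was high.

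Among CDK inhibitors and RB-family genes, 3 of 15 were called higher (20%) and 2 lower (13.33%), with a median of -0.12. Over all genes the shares were 11.8% and 13.6%. Cdkn1c, the imprinted inhibitor p57, fell evenly from 65.9, 115 and 73.9 CPM to 38.5, 67.0 and 45.5 (-0.74 ± 0.08, adjusted p = 0.0044). Of the INK4 inhibitor genes, Cdkn2b and Cdkn2a rose. Cdkn2b, p15, went from 133, 59.5 and 103 CPM to 161, 97.3 and 141 (0.47 ± 0.09), and the Cdkn2a locus of p16 and ARF from 101, 59.4 and 185 CPM to 160, 97.1 and 229 (0.55 ± 0.09). Cdkn2a had an adjusted p of 0.0647 without pair 1. The RB relative Rbl2, p130, was lower by -0.35 ± 0.08 and the chromatin subunit Rbbp4 higher by 0.34 ± 0.07, with adjusted p of 0.138 and 0.0985 without pair 1, and Rbl2 0.0793 without pair 3. Values that passed no test were Cdkn1b at 0.34 ± 0.11 (adjusted p = 0.0637), the INK4 gene Cdkn2c at -0.50 ± 0.19, Rb1 at -0.31 ± 0.10 (adjusted p = 0.0548), Rbl1 at -0.12 ± 0.13, E2f4 at 0.25 ± 0.09, E2f5 at -0.06 ± 0.12, and the MuvB subunits Lin9 at -0.52 ± 0.24, Lin37 at 0.18 ± 0.13 and Lin54 at -0.57 ± 0.26.

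Mitotic genes, which act in spindle assembly and division, were examined as a list. Of 67 measured G2/M genes, 18 were called lower and 1 higher, or 26.87% and 1.493% against 13.6% and 11.8% of all genes, with a median of -0.33. Ccnb1, cyclin B1, the activating partner of CDK1, fell from 12.7, 31.6 and 28.5 CPM to 7.17, 14.9 and 12.1 (-0.98 ± 0.13, adjusted p = 0.00607). Cenpe, a kinetochore motor, fell from 17.5, 104 and 32.7 CPM to 9.28, 32.7 and 16.9 (-1.14 ± 0.17), the kinetochore subunit gene Spc25 from 39.3, 46.6 and 64.9 to 20.2, 28.6 and 44.6 (-0.71 ± 0.11), and the cytokinesis regulator Arhgap11a from 30.0, 85.6 and 50.2 to 19.6, 35.4 and 28.1 (-0.88 ± 0.14). Ube2s, which extends ubiquitin chains for the anaphase-promoting complex, was the exception, at 73.8, 80.5 and 55.0 CPM in WT and 91.2, 106 and 64.8 in KO (0.31 ± 0.08, adjusted p = 0.119 without pair 1 and 0.0736 without pair 3).

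The size of the mitotic difference varied between pairs. The median over the 67 genes was 0.06 in pair 1, -0.92 in pair 2 and -0.30 in pair 3, and their summed level was 1120, 2079 and 1358 CPM in WT against 1144, 1285 and 1146 in KO. The WT library of replicate 2 thus held the most mitotic mRNA, while the KO libraries were alike. The numbers of genes called lower were 18, 9 and 17 with pair 1, 2 or 3 left out. These were 26.9%, 13.4% and 25.4% of the list, beside 4.6%, 13.3% and 9.19% of all genes. Without pair 2 the list thus had nearly the same share as all genes. KO lay wholly below WT for 1 of the 67 and wholly above for 1, beside 6.64% and 9.7% of all genes. Cdk1 itself was 11.2, 35.5 and 9.02 CPM in WT and 14.5, 16.4 and 7.44 in KO and was not called (-0.32 ± 0.24, adjusted p = 0.344). Top2a, the target of doxorubicin, was 9.65, 26.6 and 5.07 CPM in WT and 21.8, 16.1 and 6.26 in KO (0.22 ± 0.30, adjusted p = 0.593). Both were chosen as examples that were not called, and each had a pair in either direction.

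Promoters of mitotic genes typically carry CCAAT boxes, bound by NF-Y, and the cell cycle homology region with the core TTTGAA, bound by the MuvB core of DREAM. Both were searched in the genes of the list, and 3 promoters are printed to show where the matches lie before the start. RefSeq promoters (GRCm38.p6, 250 bases before to 50 after the start) were found for 16 of the 18 genes called lower. On either strand, CCAAT was present in 14 of them (87.5%), TTTGAA in 11 (68.8%) and both in 11 (68.8%), where matches to one motif were allowed to overlap those to the other. In the 40 G2/M genes with a promoter that were not called lower the shares were 60%, 67.5% and 50%, and over the 8628 genes of the table with a promoter they were 42.7%, 13.5% and 5.55%. Over all 32851 promoters of that length the shares were 37.4%, 17.9% and 6.95%. The stretches just before the start are given 5′ to 3′ on the strand of the gene, which is the minus strand in each case, with CCAAT and TTTGAA in capitals, and the Ccnb1 stretch holds CCAAT alone. Cdc20, the anaphase-promoting complex activator, is shown for its compact arrangement of both motifs, chosen after its values were seen.
Ccnb1, chr13:100786487-100786596: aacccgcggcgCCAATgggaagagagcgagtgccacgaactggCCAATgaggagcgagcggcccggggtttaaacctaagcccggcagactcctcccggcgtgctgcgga
Arhgap11a, chr2:113848662-113848771: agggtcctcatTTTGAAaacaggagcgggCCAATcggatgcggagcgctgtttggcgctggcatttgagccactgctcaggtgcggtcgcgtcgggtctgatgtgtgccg
Cdc20, chr4:118437344-118437413: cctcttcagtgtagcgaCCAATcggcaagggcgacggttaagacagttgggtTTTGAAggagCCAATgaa
Cdc20 was 14.4, 47.7 and 33.2 CPM in WT and 10.8, 19.1 and 18.7 in KO (-0.82 ± 0.17, adjusted p = 0.0175). A match to these letters is a description of the window and not a measured binding site.

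Of 64 measured replication genes, 13 were called lower (20.31%) and 3 higher (4.688%), beside 13.6% and 11.8% of all genes, with a median of -0.16 and pair medians of 0.02, -0.33 and -0.09. The repressor E2f7 fell from 9.51, 51.3 and 19.4 CPM to 2.43, 17.6 and 8.92 (-1.38 ± 0.15, adjusted p = 0.00449), and Orc1, the origin recognition subunit, from 9.79, 31.9 and 19.1 to 4.48, 10.1 and 9.27 (-1.17 ± 0.16). As with mitotic genes, WT replicate 2 was the highest library for each. The origin subunit Orc3 (0.39 ± 0.10), the maintenance methyltransferase Dnmt1 (0.32 ± 0.09) and the reductase subunit Rrm1 (0.28 ± 0.08) were called higher, and without pair 1 their adjusted p ran from 0.0759 to 0.169, without pair 3 from 0.0864 to 0.192, and without pair 2 they were 0.0561 for Orc3 and 0.0543 for Dnmt1. Genes of the list called lower numbered 8, 12 and 11 with pair 1, 2 or 3 left out. Of 10 replication genes called lower with a promoter in the table, CCAAT was found in 7 (70%) and TTTGAA in 0.

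**Figure D3:**
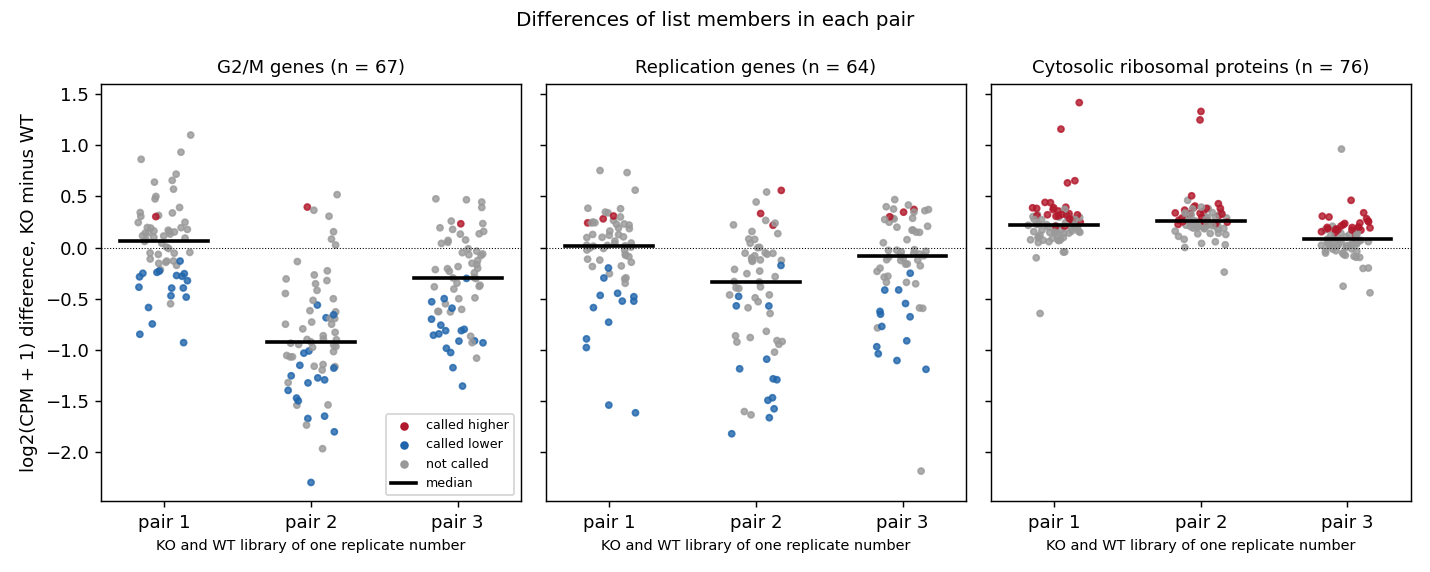
Log2(CPM + 1) differences, KO minus WT, of each measured member in pairs 1, 2 and 3 for 67 G2/M genes, 64 replication genes and 76 cytosolic ribosomal protein genes. Points are genes coloured by call and bars are medians, which for G2/M genes are 0.06, -0.92 and -0.30 and for ribosomal protein genes are 0.22, 0.26 and 0.09.

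Cytosolic ribosomal protein genes, which encode the subunits of the translating ribosome, had calls in 1 direction. Of 76, 26 were called higher (34.21% against 11.8% of all genes) and 0 lower. Of the list 73 lay above WT, as did 6034 of all 11125 genes. The median difference of the list was 0.20 against 0.03 over all genes. The summed level was 24250, 24990 and 23970 CPM in WT and 28610, 30200 and 25330 in KO. Rpl3 was 245, 275 and 227 CPM in WT and 381, 352 and 313 in KO (0.48 ± 0.08, adjusted p = 0.00869), and Rpl17 was 244, 254 and 213 against 322, 337 and 263 (0.37 ± 0.07). Rpl10a (0.37 ± 0.07) followed. With pair 1, 2 or 3 left out the list had 0, 16 and 10 higher calls. These were 0%, 21.1% and 13.2% of the list, beside 1.62%, 9.96% and 4.84% of all genes. The list median stayed between 0.16 and 0.24 (0.19, 0.16 and 0.24). Rpl3, Rpl17 and Rpl10a each lost the call without pair 1, at adjusted p from 0.0632 to 0.0898. Many of the group have near-identical pseudogenes, so how reads were shared out is uncertain. Nucleolar biogenesis factors, which assemble the ribosome, had 2 of 85 called higher (2.353%) and 5 lower (5.882%), beside 11.8% and 13.6% of all genes, with a median of 0.09. Of the 85, 61 lay above WT, beside 6034 of all 11125 genes. KO lay wholly above WT for 11 of the 85 and wholly below for 2, beside 9.7% and 6.64% of all genes. Rrp9, a U3 snoRNP protein, fell from 97.2, 175 and 187 CPM to 47.1, 103 and 124 (-0.79 ± 0.10, adjusted p = 0.00509), and Nop16 from 62.1, 120 and 116 to 41.7, 78.8 and 75.7 (-0.59 ± 0.07). Nop14 (-0.40 ± 0.07) and Nhp2 (-0.44 ± 0.08) were lower and Ppan (0.42 ± 0.10) and Utp6 (0.32 ± 0.08) higher, with adjusted p from 0.0583 to 0.101 without pair 1, and for Ppan and Utp6 0.0531 and 0.0555 without pair 2 and 0.0802 and 0.172 without pair 3. The nucleolar list had 0 higher calls in each fit with a pair left out and 2, 8 and 4 lower calls.

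Oxidative phosphorylation genes had 9 of 74 called higher and 3 lower, or 12.16% and 4.054% beside 11.8% and 13.6% of all genes, and a median of 0.12. Atp5g2, a ring subunit of ATP synthase, was 52.9, 45.1 and 39.5 CPM in WT and 80.4, 73.3 and 52.4 in KO (0.56 ± 0.09, adjusted p = 0.00869). Sdhc of complex II (0.40 ± 0.07) and Atp5c1 (0.37 ± 0.07) were also higher, and these 3 genes had adjusted p from 0.057 to 0.0843 without pair 1. Cytochrome c, Cycs (-0.33 ± 0.08), Ndufa11 (-0.33 ± 0.09) and Uqcrh (-0.30 ± 0.08) were the 3 lower members, with adjusted p from 0.0699 to 0.151 without that pair, from 0.148 to 0.162 without pair 3 and, for Uqcrh, 0.0638 without pair 2. Calls numbered 1, 8 and 6 higher and 0, 3 and 0 lower with pair 1, 2 or 3 left out.

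Polycomb targets were measured because the series title speaks of their expression. Of 131 listed targets, 60 were measured, 14 were called higher (23.33%) and 10 lower (16.67%), beside 11.8% and 13.6% of all genes, and the median was -0.02. Calls therefore went in both directions. Higher were Tfap2b and Tbx4, Foxc2, a forkhead factor of mesenchyme, at 16.7, 20.1 and 21.4 CPM in WT and 37.8, 48.8 and 38.5 in KO (1.06 ± 0.11, adjusted p = 0.00449), and the paired-related homeobox gene Prrx2 at 28.9, 27.2 and 33.5 against 50.2, 46.0 and 57.2 (0.76 ± 0.09). Tfap2b, Tbx4 and Foxc2 were in the set chosen for libraries that did not overlap, and those of Prrx2 did not overlap either. No call of these genes was lost without a pair. Lower were Tbx2, a T-box repressor, from 24.3, 32.6 and 56.0 CPM to 7.81, 15.6 and 27.7 (-1.18 ± 0.13, adjusted p = 0.00463), the AP-2 factor Tfap2c from 4.44, 7.17 and 9.57 to 1.47, 3.79 and 3.79 (-1.02 ± 0.15), the endoderm factor Foxa2 from 3.47, 8.73 and 11.0 to 0.576, 4.00 and 6.06 (-1.07 ± 0.18), and Sox11 from 29.4, 45.5 and 47.1 to 21.8, 25.9 and 32.5 (-0.58 ± 0.11). These too kept their calls without any one pair. Targets at low levels in WT are under-represented here because of the selection above 2 CPM. Counted without pair 1, 10 targets were called higher and 5 lower, and with genes of a mean of at least 10 CPM alone, 12 and 6.

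The Hox genes, textbook Polycomb targets that set position along the body and limb, differed by cluster. In the Hoxa cluster 3 of 6 measured genes were called higher (50%, beside 11.8% of all genes). Hoxa13 was 6.32, 6.24 and 5.46 CPM in WT and 12.9, 11.0 and 10.1 in KO (0.81 ± 0.13, adjusted p = 0.00853), Hoxa10 differed by 0.68 ± 0.13 and Hoxa9 by 0.47 ± 0.13. Without pair 1 these had adjusted p from 0.0546 to 0.177, Hoxa9 also 0.0524 without pair 2, and Hoxa10 and Hoxa9 0.0567 and 0.104 without pair 3. Hoxa11 (0.33 ± 0.11, adjusted p = 0.0686), Hoxa7 (-0.19 ± 0.14) and Hoxa5 (-0.23 ± 0.20) were not called. In the Hoxd cluster Hoxd13, the most distal limb gene, was 17.8, 22.8 and 27.5 CPM in WT and 52.9, 50 and 57.9 in KO (1.22 ± 0.12, adjusted p = 0.0044), whereas Hoxd11 (0.48 ± 0.17, adjusted p = 0.0818), Hoxd10 (-0.13 ± 0.16) and Hoxd8 (-0.02 ± 0.20) were not called. Hoxd13 was in the set chosen for libraries that did not overlap, and its call held without any one pair.

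In the Hoxc cluster the calls were lower. Of 7 measured Hoxc genes 4 were called lower (57.14%) and 0 higher, beside 13.6% and 11.8% of all genes, with a median of -0.58. Hoxc10 fell from 31.9, 37.7 and 21 CPM to 15.2, 17.6 and 8.97 (-1.08 ± 0.10, adjusted p = 0.0044), with no overlap and pairs between -1.15 and -1.02. Hoxc13 fell from 13.1, 19.5 and 26.8 to 5.50, 11.4 and 14.4 (-0.90 ± 0.13), Hoxc5 from 21.9, 15.1 and 35.5 to 11.3, 8.57 and 22.8 (-0.75 ± 0.11), and Hoxc6 from 58.0, 48.9 and 65.8 to 37.6, 25.7 and 55.9 (-0.58 ± 0.13, adjusted p = 0.0947 without pair 1). Hoxc9 (-0.50 ± 0.17, adjusted p = 0.0703), Hoxc4 (-0.22 ± 0.15) and Hoxc8 (-0.13 ± 0.14) were not called. Of the 8 measured Hoxb genes 0 were called, as listed in the plot of Hox differences, and they ran from -0.33 for Hoxb9 (adjusted p = 0.161) to 0.29 for Hoxb2 (adjusted p = 0.268). Between them lay Hoxb8 at -0.26, Hoxb5 at -0.18, Hoxb4 at -0.10, Hoxb7 at -0.08, Hoxb3 at -0.03 and Hoxb6 at 0.02. The signs of Hoxa5, Hoxb3, Hoxb4, Hoxb6, Hoxc8, Hoxd8 and Hoxd10 changed in at least 1 alternative fit, so no direction is given for them.

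**Figure D4:**
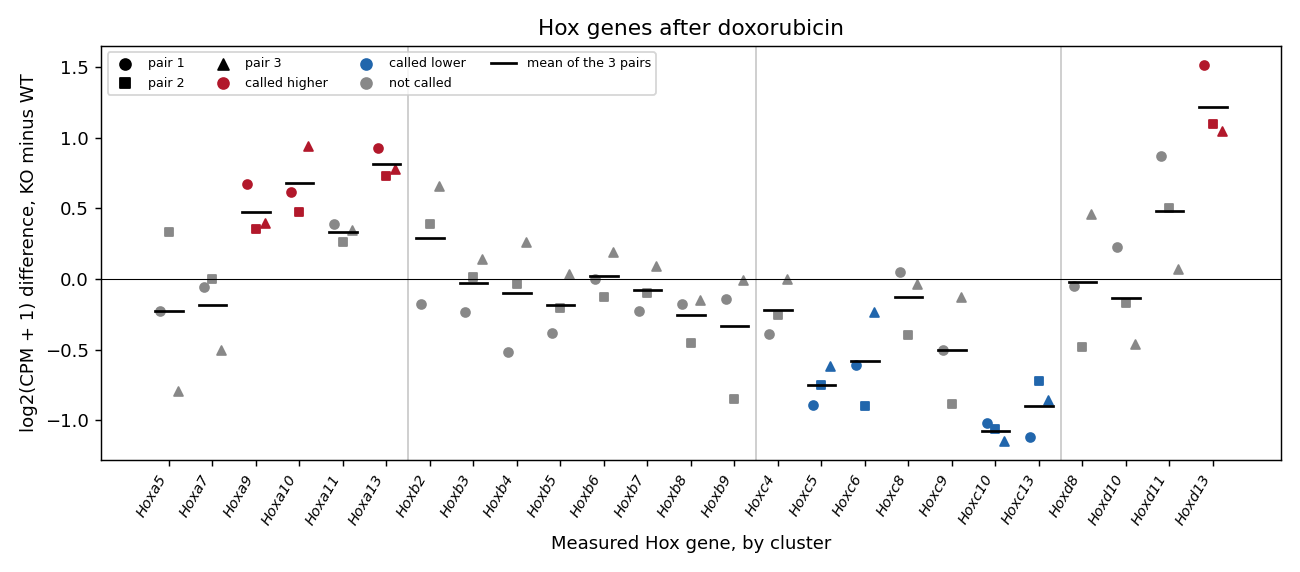
Log2(CPM + 1) difference, KO minus WT, of each measured Hox gene in pairs 1 to 3, marked by shape, with a bar at the mean of the pairs and colour for the call. Hoxd13 at 1.22 and Hoxa13 at 0.81 stand above 0 in each pair, and Hoxc10 at -1.08, Hoxc13 at -0.90 and Hoxc5 at -0.75 stand below it.

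Limb identity genes had 7 of 18 called higher (38.89%) and 2 lower (11.11%), beside 11.8% and 13.6% of all genes, with a median of 0.36. Tbx4, which specifies the hindlimb, was 6.73, 8.82 and 5.01 CPM in WT and 28.2, 24.4 and 13.2 in KO (1.51 ± 0.16, adjusted p = 0.00449). Its hindlimb regulator Pitx1 was 6.80, 7.31 and 7.07 CPM in WT and 16.7, 15.5 and 7.05 in KO, and was not called (0.72 ± 0.23, adjusted p = 0.0582). Pairs 1 and 2 of Pitx1 differed by 1.18 and 0.99, while the libraries of pair 3 were nearly equal. Grem1, the BMP antagonist that keeps the limb bud growing, rose from 128, 191 and 185 CPM to 222, 252 and 304 (0.63 ± 0.09), and Msx1 (0.86 ± 0.17), Msx2 (0.38 ± 0.11) and Sall1 (0.57 ± 0.15) were higher and Meis2 (-0.45 ± 0.11) lower, with adjusted p from 0.0748 to 0.165 without pair 1, and 0.112 for Msx2 without pair 2 and 0.185 for Sall1 without pair 3. The list had 3, 7 and 8 higher and 1, 2 and 4 lower calls with pair 1, 2 or 3 left out. The rest were not called, with Gli3 at 0.31 ± 0.10 (adjusted p = 0.061), Lmx1b at 0.22 ± 0.14, Shox2 at -0.42 ± 0.18, Meis1 at -0.16 ± 0.12 and Alx4 at -0.03 ± 0.14. This list shares Hoxa11, Hoxa13, Hoxc9, Hoxc10, Hoxd11 and Hoxd13 with the clusters above and Tbx4, Msx1, Msx2 and Meis2 with the Polycomb targets. Whether the cultures came from the same parts of the embryo is not given in the sources used here, and its part in these values was not tested.

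Polycomb complex genes had 5 of 35 called higher (14.29%) and 2 lower (5.714%), beside 11.8% and 13.6% of all genes, with a median of 0.09. The methyltransferase gene Ezh2 was 19, 42.5 and 14.3 CPM in WT and 20, 27.4 and 15.8 in KO (-0.14 ± 0.16, adjusted p = 0.536), Suz12 differed by -0.04 ± 0.09 and Eed by -0.06 ± 0.08. These core PRC2 members, given as examples, were not called. Epop, a PRC2 accessory factor, fell from 8.95, 41.8 and 27.4 CPM to 4.35, 10.5 and 9.17 (-1.43 ± 0.19, adjusted p = 0.00637), and the PRC2 recruiter Jarid2 was lower by -0.44 ± 0.10. The PRC1 members Cbx6 (0.43 ± 0.08) and Phc3 (0.35 ± 0.10), Rbbp4 and Asxl1 (0.30 ± 0.09) were higher. Without pair 1 the adjusted p of Jarid2, Cbx6, Phc3, Rbbp4 and Asxl1 ran from 0.0763 to 0.119, without pair 2 it was 0.0672 for Phc3 and 0.0827 for Asxl1, and without pair 3 it ran from 0.113 to 0.192 for Jarid2, Phc3 and Asxl1. Epop kept its call throughout, and the list had 0, 2 and 2 higher calls with pair 1, 2 or 3 left out.

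Oncofetal and let-7 target genes, active in the embryo and repressed by the let-7 miRNAs later, had 7 of 27 called higher (25.93%) and 1 lower (3.704%), with a median of 0.17. Over all genes the shares were 11.8% and 13.6%. Hmga2, an architectural chromatin protein of growing mesenchyme, was 423, 381 and 341 CPM in WT and 797, 826 and 672 in KO (1.00 ± 0.07, adjusted p = 0.0036). Its 3 pairs lay between 0.91 and 1.11, and Hmga2 was in the set chosen for libraries that did not overlap. Igf1r, the IGF1 receptor, was 110, 89.2 and 88.8 CPM in WT and 150, 129 and 154 in KO (0.59 ± 0.09), and Plagl1, an imprinted zinc finger factor, was 86.4, 142 and 121 against 155, 203 and 197 (0.68 ± 0.08). Rictor, the mTORC2 scaffold, was higher by 0.54 ± 0.11 (adjusted p = 0.0895 without pair 1), and the receptor Tgfbr1 was the 1 lower member, from 73.7, 116 and 95.2 CPM to 54.9, 64.2 and 66.2 (-0.60 ± 0.10). Imprinted genes as a list split evenly, with 4 of 29 higher and 4 lower (13.79% each, median -0.06), near the shares of all genes. H19, the maternally expressed noncoding RNA, was 200, 45.8 and 71.1 CPM in WT and 460, 57.2 and 104 in KO (0.68 ± 0.16), and the coatomer gene Copg2 differed by 0.56 ± 0.09 and the transporter Slc38a4 by 0.51 ± 0.15. Beside Cdkn1c, the zinc finger gene Zim1 (-1.06 ± 0.21), Impact (-0.51 ± 0.10) and Zdbf2 (-0.86 ± 0.20) were lower. H19, Slc38a4, Zim1, Impact and Zdbf2 had adjusted p from 0.0755 to 0.228 without pair 1, and Slc38a4 0.0876 without pair 3. Oncofetal genes called higher numbered 3, 8 and 5, and the imprinted list had 2, 7 and 3 higher and 1, 4 and 6 lower calls with pair 1, 2 or 3 left out.

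Secreted inflammatory factors, many of them parts of the secretory phenotype of damaged fibroblasts, had 10 of 40 called higher (25%) and 9 lower (22.5%), beside 11.8% and 13.6% of all genes, with a median of -0.01. Il1rl1, the IL-33 receptor ST2, was 153, 238 and 203 CPM in WT and 267, 389 and 403 in KO (0.83 ± 0.08, adjusted p = 0.0044), and Igfbp4, an IGF-binding protein, was 62.0, 65.1 and 27.6 against 120, 158 and 40.1 (0.91 ± 0.14). Tnfsf11 and Fgf7 belong to this list. Icam1, the leukocyte adhesion ligand, fell from 140, 161 and 360 CPM to 59.0, 75.1 and 216 (-1.02 ± 0.10, adjusted p = 0.0044), the chemokine gene Cxcl16 from 39.9, 70.3 and 22.2 to 23.4, 36.4 and 11.2 (-0.87 ± 0.10), and the monocyte attractant Ccl2 from 212, 269 and 148 to 105, 130 and 113 (-0.81 ± 0.13). For each of these genes all 3 pairs differed in the same direction, as they did in all but 3 of the 2820 called genes. Mmp10 was lower by -0.85 ± 0.17. Ccl2 and Mmp10 had adjusted p of 0.057 and 0.0772 without pair 1. Il6, often taken as the leading factor of this group and chosen after its values were seen, was 10.4, 12.6 and 5.79 CPM in WT and 6.40, 5.79 and 4.83 in KO (-0.62 ± 0.18, adjusted p = 0.0426, and 0.137 without pair 1 and 0.125 without pair 2). The list had 4, 11 and 8 higher and 3, 6 and 11 lower calls with pair 1, 2 or 3 left out.

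Interferon-stimulated genes had 10 of 57 called lower (17.54%) and 1 higher (1.754%), beside 13.6% and 11.8% of all genes. The median was -0.15, with pair medians of -0.12, -0.56 and 0.15. Igtp, an immunity-related GTPase, fell from 33.0, 25.7 and 38.5 CPM to 15.9, 10.2 and 20.6 (-1.04 ± 0.12, adjusted p = 0.00463), and Ifi27l2b from 9.58, 12.9 and 9.24 to 2.69, 3.94 and 3.50 (-1.40 ± 0.14). The proteasome activator subunit Psme2 (-0.51 ± 0.07) and the immunoproteasome subunit Psmb9 (-0.82 ± 0.14, adjusted p = 0.0546 without pair 1) were also lower. Xaf1, an antagonist of XIAP, rose from 19, 12.0 and 36.7 CPM to 47.8, 22.7 and 78.5 (1.07 ± 0.11, adjusted p = 0.00449). The list had 1, 6 and 1 higher and 3, 9 and 18 lower calls with pair 1, 2 or 3 left out. Immediate-early genes had 3 of 24 called higher (12.5%) and 4 lower (16.67%), beside 11.8% and 13.6% of all genes (median 0.09). Ccn1, a matricellular protein induced by YAP, was 745, 597 and 511 CPM in WT and 1018, 1042 and 838 in KO (0.66 ± 0.09, adjusted p = 0.0065), and Fosl2 (0.33 ± 0.07) and Dusp1 were higher. Fos fell from 43.9, 64.2 and 63.5 CPM to 29.3, 32 and 44.8 (-0.68 ± 0.12) and Fosb from 19.6, 61.8 and 23.6 to 14.7, 28.9 and 11.6 (-0.81 ± 0.15), with Maff (-0.43 ± 0.08) and Zfp36 (-0.32 ± 0.09) also lower. Fosl2, Dusp1, Maff and Zfp36 had adjusted p from 0.0565 to 0.104 without pair 1, Zfp36 0.0627 without pair 2, and Fosl2 and Zfp36 0.113 and 0.0822 without pair 3. That list had 1, 3 and 2 higher calls with pair 1, 2 or 3 left out.

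Contractile genes had 10 of 36 called higher (27.78%) and 5 lower (13.89%), beside 11.8% and 13.6% of all genes, with a median of 0.01. The higher members named here are actin-binding proteins that many cells share. Cnn2, a calponin, was 366, 375 and 219 CPM in WT and 654, 531 and 417 in KO (0.75 ± 0.10, adjusted p = 0.00548), and the tropomyosin gene Tpm4 was 758, 722 and 586 against 1068, 1045 and 817 (0.50 ± 0.07). Tpm1 (0.55 ± 0.10) and Cnn3 (0.42 ± 0.07) were higher too, and Tpm4, Tpm1 and Cnn3 had adjusted p from 0.0543 to 0.0733 without pair 1. Beside Des, the lower members were the smooth muscle calponin Cnn1, from 184, 519 and 213 CPM to 138, 230 and 132 (-0.76 ± 0.13, adjusted p = 0.0109), the laminin receptor subunit Itga1 (-0.97 ± 0.16) and the potassium channel subunit Kcnmb1 (-1.18 ± 0.27), the last pair with adjusted p of 0.0546 and 0.0699 without pair 1. Of 28 markers of skeletal muscle 5 were measured, and 2 of these were called lower (40%, beside 13.6% of all genes). With pair 1, 2 or 3 left out, 0, 1 and 4 were called lower. Acta1 was among the 2 called lower, at 26.4, 131 and 7.07 CPM in WT and 10.2, 26.1 and 4.34 in KO (-1.39 ± 0.28, adjusted p = 0.0653 without pair 1). The selection above 2 CPM in WT alone favours lower calls among scarce markers. The summed level of the 5 markers was 20.9 to 163 CPM in WT and 16.7 to 45.8 in KO, and their part in the result was not tested. The contractile list had 2, 11 and 7 higher and 3, 5 and 7 lower calls with pair 1, 2 or 3 left out.

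Matrix genes had 10 of 64 called higher (15.62%) and 13 lower (20.31%), beside 11.8% and 13.6% of all genes, with a median of -0.08. Col11a1, a fibrillar collagen chain, was 168, 128 and 142 CPM in WT and 313, 242 and 272 in KO (0.92 ± 0.07, adjusted p = 0.0036), with pairs between 0.89 and 0.94. The small proteoglycan gene Ogn was 68.2, 26.1 and 94.6 CPM against 166, 45.8 and 245 (1.14 ± 0.12), the gelatinase Mmp2 was 319, 235 and 355 against 562, 323 and 598 (0.67 ± 0.09), and osteopontin, Spp1, differed by 0.57 ± 0.11 (adjusted p = 0.0753 without pair 1). The other gelatinase went down: Mmp9 fell from 30.9, 38.1 and 4.23 CPM to 8.96, 9.73 and 1.28 (-1.58 ± 0.16, adjusted p = 0.0044). The membrane-anchored protease Mmp17 (-1.20 ± 0.13), the aggrecanase Adamts1 (-0.63 ± 0.09) and the basement membrane collagen Col4a2, from 1250, 1251 and 1137 CPM to 852, 786 and 860 (-0.54 ± 0.08, adjusted p = 0.0592 without pair 1), were lower. The list had 3, 15 and 5 higher and 3, 11 and 18 lower calls with pair 1, 2 or 3 left out.

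Components of BMP and TGF-beta signalling had 8 of 49 called higher (16.33%) and 10 lower (20.41%), with a median of 0.03. Over all genes the shares were 11.8% and 13.6%. Among receptors, Tgfbr2 rose from 220, 125 and 228 CPM to 316, 168 and 325 (0.49 ± 0.07, adjusted p = 0.0065) and Acvrl1 from 4.79, 3.80 and 5.01 to 14, 8.00 and 9.76 (1.04 ± 0.16), while Tgfbr1 fell (-0.60 ± 0.10) and the co-receptor Eng was lower by -0.61 ± 0.10. Among antagonists, Grem1 rose and Nog, noggin, fell from 9.16, 17.9 and 10.2 CPM to 3.71, 9.36 and 6.41 (-0.86 ± 0.15), as did Nbl1 (-0.49 ± 0.09). Eng, Nog and Nbl1 had adjusted p from 0.0565 to 0.0653 without pair 1. The BMP target Id3 rose from 52.1, 75.7 and 104 CPM to 103, 111 and 157 (0.70 ± 0.10). The list had 5, 13 and 7 higher and 5, 8 and 9 lower calls with pair 1, 2 or 3 left out.

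Wnt pathway genes had 2 of 37 called higher and 5 lower (5.405% and 13.51%), beside 11.8% and 13.6% of all genes, with a median of -0.11. Axin2, a direct target of beta-catenin, was 43.4, 12.4 and 55.1 CPM in WT and 65.0, 30.4 and 78.7 in KO (0.77 ± 0.15), and the secreted antagonist Dkk2 differed by 0.55 ± 0.13. The ligand Wnt4 fell from 45, 44.3 and 82.6 CPM to 19.3, 24.1 and 54.2 (-0.88 ± 0.12, adjusted p = 0.00705), and the secreted Frizzled-related antagonists Sfrp2 (-0.84 ± 0.14) and Frzb, from 14.4, 35.8 and 21.6 to 5.44, 9.26 and 14 (-1.23 ± 0.22), and the R-spondin receptor Lgr4 (-0.42 ± 0.12) were lower. Axin2, Dkk2, Sfrp2, Frzb and Lgr4 lost their calls without pair 1 (adjusted p from 0.0512 to 0.0722), Lgr4 also without pair 2 (0.112) and pair 3 (0.156), and Wnt4 kept its call throughout. The list had 0, 4 and 2 higher and 1, 5 and 3 lower calls with pair 1, 2 or 3 left out.

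Lysosome and autophagy genes had 13 of 47 called lower (27.66% against 13.6% of all genes) and 1 higher, with a median of -0.15. Ulk1, the kinase that starts autophagy, fell from 214, 258 and 313 CPM to 108, 138 and 209 (-0.82 ± 0.09, adjusted p = 0.00463). The autophagosome protein gene Gabarapl1 fell from 219, 251 and 225 CPM to 150, 175 and 171 (-0.48 ± 0.07), the protease Ctsl from 1147, 1731 and 1189 to 882, 1178 and 852 (-0.47 ± 0.08), and Wipi1 from 170, 174 and 216 to 130, 130 and 170 (-0.38 ± 0.07). Gabarap was the 1 higher member (0.29 ± 0.08). Ulk1 kept its call without any pair, and the other 4 had adjusted p from 0.0546 to 0.099 without pair 1, with 0.0561 and 0.0766 for Gabarap without pair 2 and pair 3. With pair 1, 2 or 3 left out, 1, 12 and 9 genes of the list were called lower, and the list median was -0.14, -0.13 and -0.13.

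NRF2 and redox genes had 7 of 32 called lower (21.88%) and 2 higher (6.25%), beside 13.6% and 11.8% of all genes, with a median of -0.09. Gsto1, a glutathione transferase, fell from 1238, 1647 and 1593 CPM to 623, 1083 and 1013 (-0.75 ± 0.10, adjusted p = 0.00617), and heme oxygenase, Hmox1, from 447, 517 and 476 to 283, 377 and 360 (-0.51 ± 0.08). For both genes the KO and WT libraries did not overlap. Srxn1 (-0.61 ± 0.10) and Prdx6 (-0.41 ± 0.07) were lower, and Keap1, the NRF2 inhibitor (0.49 ± 0.10), and Gsr (0.49 ± 0.12) were higher. Hmox1, Srxn1, Prdx6, Keap1 and Gsr had adjusted p from 0.0555 to 0.0816 without pair 1, Gsr 0.0563 without pair 2 and Keap1 0.0775 without pair 3. The list had 1, 10 and 6 lower calls with pair 1, 2 or 3 left out. Amino acid stress genes had 4 of 37 called higher (10.81%) and 5 lower (13.51%), beside 11.8% and 13.6% of all genes (median 0.01). The tRNA synthetases Gars (0.37 ± 0.07), Aars (0.26 ± 0.07) and Iars (0.32 ± 0.09) and the stress factor Nupr1 (0.55 ± 0.14) were higher. The transporters Slc7a5, from 132, 290 and 236 CPM to 69.9, 125 and 151 (-0.92 ± 0.11, adjusted p = 0.00493), and Slc6a9 (-0.82 ± 0.11) were lower, as were Cth (-0.65 ± 0.15) and Chac1 (-0.47 ± 0.13). Without pair 1 the adjusted p of Gars, Aars, Iars, Nupr1 and Chac1 ran from 0.0512 to 0.136, without pair 2 it was 0.0566 for Iars, 0.0576 for Cth and 0.112 for Chac1, and without pair 3 it ran from 0.0542 to 0.191 for Gars, Aars, Nupr1, Cth and Chac1. That list had 0, 4 and 1 higher and 3, 2 and 2 lower calls with pair 1, 2 or 3 left out.

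Cholesterol synthesis genes split evenly, with 4 of 28 higher and 4 lower (14.29% each) and a median of 0.08. Over all genes the shares were 11.8% and 13.6%. The regulator Srebf2 was 87.8, 75.3 and 55.8 CPM in WT and 138, 95.8 and 84.1 in KO (0.52 ± 0.09, adjusted p = 0.00926), with overlapping groups. Scd2 (0.47 ± 0.09) and Fdft1 (0.45 ± 0.10) were also higher and Mvk (-0.56 ± 0.09), Acat2 (-0.51 ± 0.12) and Acly (-0.39 ± 0.11) lower. Srebf2, Scd2, Fdft1, Mvk and Acat2 had adjusted p from 0.0576 to 0.0912 without pair 1, Acat2 and Acly 0.0534 and 0.0949 without pair 2, and Fdft1, Acat2 and Acly from 0.0559 to 0.0834 without pair 3. The list had 1, 10 and 3 higher and 1, 2 and 3 lower calls with pair 1, 2 or 3 left out.

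Markers of cell types were examined to check the label and the makeup of the cultures. Fibroblast genes were abundant in all libraries, with Col1a1 at 7008 to 8254 CPM in WT and 6705 to 8787 in KO and Vim at 3974 to 4435 and 4063 to 4853, and neither was called. Of 19 measured fibroblast markers 3 were higher, Twist1 (0.63 ± 0.09), Prrx1 (0.58 ± 0.08) and Col5a1 (0.34 ± 0.09), and 3 lower, S100a4 (-0.70 ± 0.07), Thy1 (-0.78 ± 0.14) and Postn (-0.72 ± 0.21). Each share was 15.79%, beside 11.8% higher and 13.6% lower over all genes. Col5a1, Thy1 and Postn had adjusted p from 0.0712 to 0.164 without pair 1, Postn 0.0911 without pair 2 and Col5a1 0.113 without pair 3. Of 18 adipocyte markers 9 were measured, and 4 of these were called lower (44.44%, beside 13.6% of all genes). Only genes above 2 CPM in all WT libraries are listed, with no such condition on KO, so scarce markers could enter through WT alone. That selection favours lower calls in this and the other lists of scarce markers. The 9 adipocyte markers summed to 399 to 673 CPM in WT and 297 to 399 in KO. Dgat2, a triglyceride-forming enzyme, fell from 20.5, 120 and 139 CPM to 5.12, 27.8 and 52.0 (-1.76 ± 0.13, adjusted p = 0.00392) and the factor Cebpa from 54.7, 86.9 and 107 to 28.4, 44.7 and 56.0 (-0.93 ± 0.08). Lpl (-1.10 ± 0.20) and Slc2a4 (-1.01 ± 0.17) were lower, with adjusted p of 0.0633 and 0.0567 without pair 1, and the defining markers Adipoq and Pparg are not analysed here.

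Of 24 epithelial markers 9 were measured under the same selection on WT, and 4 of these were called lower (44.44%). Over all genes 13.6% were called lower and 11.8% higher. The epithelial markers summed to 477 to 730 CPM in WT and 327 to 742 in KO. Esrp2, an epithelial splicing factor, fell from 65.9, 63.6 and 84.7 CPM to 23.8, 33.9 and 37.0 (-1.17 ± 0.12, adjusted p = 0.0044) and the tight junction gene Cldn6 from 10.6, 16.8 and 12.3 to 3.58, 8.79 and 2.96 (-1.32 ± 0.19). Lamb3 (-1.08 ± 0.21) and Krt19 (-0.52 ± 0.14) were lower, with adjusted p of 0.0722 and 0.143 without pair 1 and 0.103 for Krt19 without pair 3, and Epcam and Cdh1 are not analysed here. Neural and glial markers had 1 of 8 higher, Map2 (0.65 ± 0.13), and 3 lower, Mbp (-0.60 ± 0.12), Tubb3 (-0.57 ± 0.13) and Nefm (-0.55 ± 0.15), with adjusted p from 0.0664 to 0.127 without pair 1, 0.0966 for Nefm without pair 2, 0.0551 for Mbp and 0.0953 for Nefm without pair 3, and sums of 573 to 749 CPM in WT and 549 to 754 in KO. The 5 endothelial markers had Eng called lower, and the 3 blood markers had Cd14 (-0.53 ± 0.10, adjusted p = 0.0816 without pair 1), with sums of 228 to 246 and 84.3 to 175 CPM in WT and 170 to 208 and 70.5 to 148 in KO. Cartilage and bone markers had 3 of 10 higher, Col11a1, Spp1 and Runx2 (0.32 ± 0.09), and 2 lower, Col11a2 (-0.83 ± 0.13) and Comp (-1.05 ± 0.17), where Runx2 and Comp had adjusted p of 0.114 and 0.0546 without pair 1 and Runx2 0.239 without pair 3. The part of other cell types in the results above was not tested.

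Because the background is hybrid 129/B6, 6 measured genes known to vary between inbred strains were listed. Besides Ifi202b, Glo1, glyoxalase 1, was 116, 109 and 174 CPM in WT and 88.5, 98.2 and 123 in KO and was called lower (-0.34 ± 0.09, adjusted p = 0.0314, and 0.136 without pair 1 and 0.169 without pair 3). Nnt (0.26 ± 0.09, adjusted p = 0.0806), Alad (-0.35 ± 0.12, adjusted p = 0.0767), Wdfy1 (-0.48 ± 0.27) and Entpd4 (0.25 ± 0.19) were not called. Wdfy1 lay below WT in pairs 1 and 2 (-0.95 in pair 1) and above it in pair 3 (0.49). The share of each genotype's libraries that derives from either strain is not given in the sources used here, and its part in the results was not tested.

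**Figure D5:**
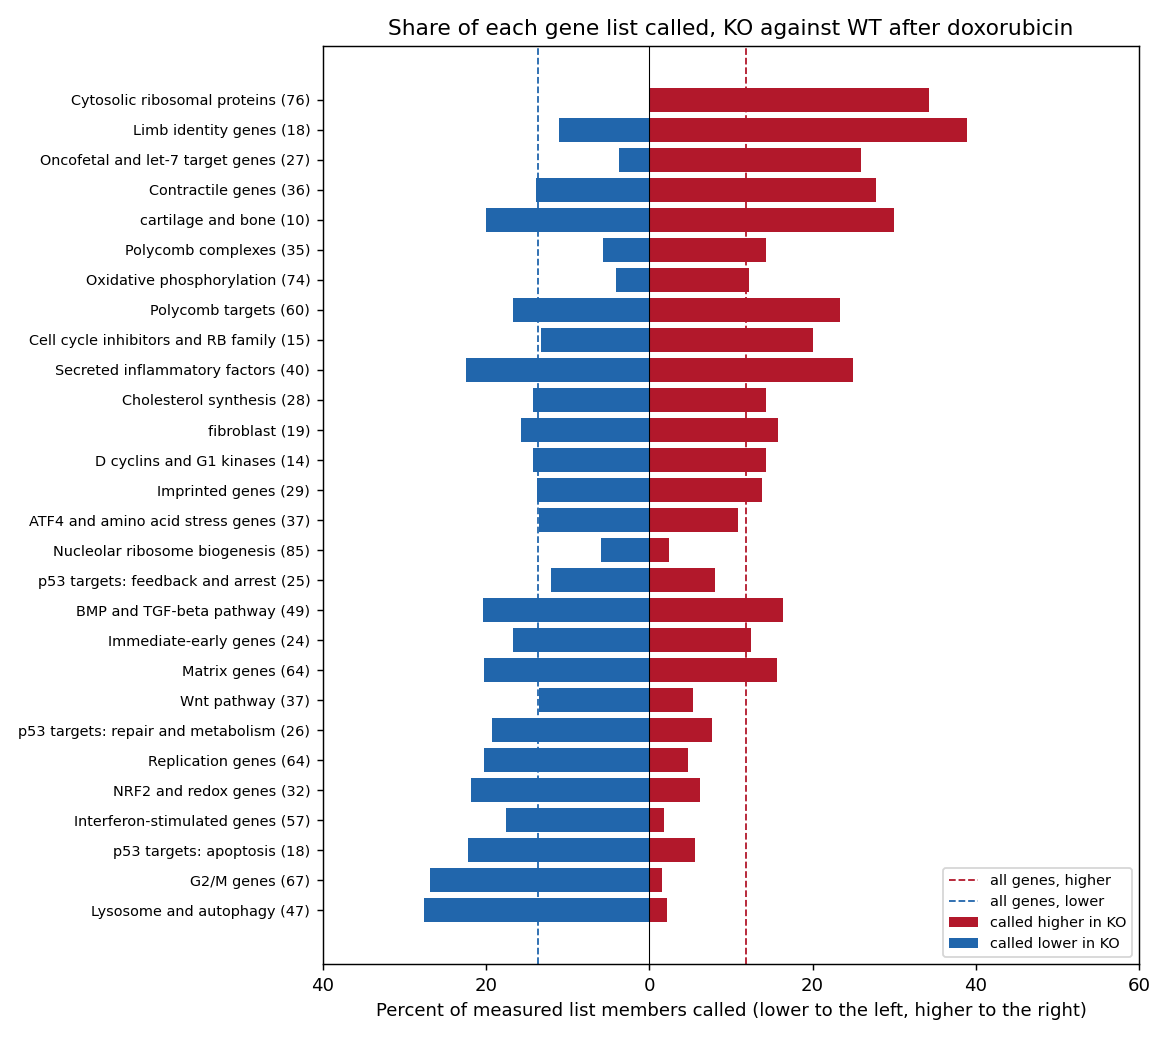
Percent of the measured members of each list with at least 10 measured genes that were called higher (right, red) or lower (left, blue) in KO, with list sizes in parentheses and dashed lines at 11.8% and 13.6%, the shares over all genes. Limb identity genes with 38.89% and ribosomal protein genes with 34.21% called higher are at one end, and lysosome and autophagy genes with 27.66% and G2/M genes with 26.87% called lower at the other.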

How the data were processed

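Gene expression after doxorubicin was taken from the deposited table of CPM (a gene's read counts scaled to the library total), 1 column per library, as deposited by the authors, and columns were matched to samples by name. NCBIM37 is the assembly, and edgeR, HTSeq and TopHat2 2.0.6 are the tools, listed in the submitters' processing notes, and what each did is not given in the sources used here. No further scaling was applied, and 100% of values were whole multiples of 1 read within 0.001 reads of inferred library totals. A stranded mRNA kit was used per the labels' protocols, and all 11125 genes are above 2 CPM in each WT library.

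Differences were fitted with limma 3.58.1 in R 4.3.3 (lmFit, eBayes with trend) on log2(CPM + 1), pseudocount 1, with genotype and replicate number as terms, and adjusted over all genes by Benjamini-Hochberg at 0.05. On that scale the change of a gene with low CPM is understated. The block was kept because same-numbered libraries correlated at 0.734, 0.669 and 0.800 in their deviations from the group means. The values of -0.114 or below for different numbers follow in part from deviations cancelling out within each group. The procedure was tested on simulated data. Promoters and gene order came from RefSeq GRCm38.p6 by name, with 9583 genes matched by symbol, 1162 by synonym and 380 not.

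Members and gene lists were chosen with earlier results of these data known. Named genes are the 20 largest called differences per direction with non-overlapping libraries and a mean of at least 5 CPM, up to 4 called members per list and direction with the smallest adjusted p, all measured members of the Hox, limb, D cyclin, cell cycle inhibitor and strain-variable lists, and Cdkn1a, Trp53 and Mdm2. Some genes that meet this rule are not reported here. Lists have no set test and are given as counts beside all genes. Alternatives were the fit without the block, a pseudocount of 0.5, a mean of at least 10 CPM, quantile normalization, median centring and leaving out each pair.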

Additional observations from a re-analysis of the deposited data

How the results depend on the processing

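The replicate block decided the calls: with no replicate block, 0 genes were called in either direction, and 0 in each of the G2/M, replication and Polycomb target lists. Cdkn1a stayed uncalled under every alternative, at -0.10 to -0.31.

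With a pair left out, 692 to 2590 genes were called, 180 to 1108 of them higher and 512 to 1482 lower. G2/M genes called lower numbered 9 to 18, replication genes called lower 8 to 12, Polycomb targets called higher 10 to 15 and called lower 5 to 10. Of the 39 Polycomb targets with a mean of at least 10 CPM, 12 were called higher and 6 lower. A pseudocount of 0.5, quantile normalization and median centring called 2833, 2602 and 2718 genes, and median centring moved the split to 1048 higher and 1670 lower. Of 213 named called genes, 213 kept their calls with a pseudocount of 0.5, 205 with quantile normalization, 207 with median centring, 99 without pair 1, 188 without pair 2 and 171 without pair 3.

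Some uncalled genes changed sign. With a pair left out, Alx4 ran from -0.13 to 0.05, Cdk6 from -0.02 to 0.07, Entpd4 from -0.06 to 0.48, Hoxa5 from -0.51 to 0.06, Hoxb3 from -0.11 to 0.08, Hoxb4 from -0.28 to 0.11, Hoxb6 from -0.06 to 0.09, Hoxc8 from -0.22 to 0.01, Hoxd8 from -0.27 to 0.20, Hoxd10 from -0.31 to 0.03 and Mdm2 from -0.01 to 0.16. Under quantile normalization Alx4 was 0.0039, Hoxb3 0.04 and Hoxd8 0.04, and under median centring Cdk6 was -0.0026 and Hoxb6 -0.01. The cause was not tested.

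Planned count tests with edgeR on whole reads recovered from the CPM were not run. Counting error is largest, relative to the level, for the lowest genes, and in 146 of the genes called lower at least 1 KO library did not exceed 2 CPM.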

Other observations

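Of the 2820 called genes, 3 had pairs that differed in both directions, and these were noticed after the values were seen. Besides Apoe they were Anxa8, a phospholipid-binding annexin, at 44.2, 85.7 and 49.6 CPM in WT and 103, 228 and 48.7 in KO (0.86 ± 0.25, SE, adjusted p = 0.0437 with limma), and Crispld2, a secreted protein of mesenchyme, at 55.8, 139 and 29.3 in WT and 22.0, 31.2 and 29.8 in KO (-1.13 ± 0.34, adjusted p = 0.0498). In each the first and second pairs differed and the third did not: Anxa8 had pair values of 1.20, 1.40 and -0.02 and Crispld2 of -1.30, -2.12 and 0.02. Both calls were lost without pair 1 (adjusted p of 0.175 and 0.164) or pair 2 (0.138 and 0.14).

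Other genes differed most in pairs 1 and 3. The water channel gene Aqp1 was 9.09, 6.92 and 25.1 CPM in WT and 19.1, 11.9 and 123 in KO (1.32 ± 0.27), and the matricellular gene Ccn5 was 35.4, 6.63 and 55.7 in WT and 95.2, 9.89 and 202 in KO (1.25 ± 0.22). Replicate 2 was the lowest library of each genotype for both, and without pair 1 the adjusted p was 0.056 for Aqp1 and 0.0633 for Ccn5. Prl3a1, a placental prolactin family gene, was highest in replicate 2, at 7.57, 58.5 and 3.56 CPM in WT and 1.98, 15.3 and 0.69 in KO (-1.61 ± 0.15, adjusted p = 0.0044), and it kept its call without any one pair.

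By chromosome, the share of measured genes called ran over the autosomes from 21.92% of 406 genes on chromosome 13 to 28.22% of 528 on chromosome 6. Only 24 genes matched to X and 0 to Y, too few to set beside the autosomes. Genes of the sex chromosomes are thus largely absent here. Chromosome 17, which carries Cdkn1a, had 22.65% of 521 genes called, 60 higher and 58 lower, with a median log2 difference of 0.07.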
